A study of Mus musculus with 15 samples.

Results

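Expression in Cebpa/Cebpb double-knockout (dKO) cells was compared with that in the same cells given back LAP*, the long isoform of C/EBPβ. The comparison used 6 of the 15 RNA-seq libraries of the series, 3 of dKO-LAP* and 3 of dKO cells, both of the clone labelled C1. All genes except Cebpb were considered. Of 24520 genes with any read, 12672 were tested. The starting cells, designated WTFL, were mouse fetal liver cells with floxed Cebpa and Cebpb alleles, transformed by a retrovirus carrying the MLL-ENL fusion oncogene. The dKO cells had lost both genes through cell-permeable TAT-Cre, came from a single surviving clone and are labelled as expressing GFP. The dKO-LAP* cells have the same genotype and are labelled as expressing GFP together with rat C/EBPβ LAP*. The WTFL libraries of C1, labelled with no exogenous expression, are given beside the other groups where they help to place a level. All cells grew in IL-3, all carried MLL-ENL, and the 3 RNA samples of each line were taken at different times. The replicates are thus repeat samples of 1 line. The spread behind each p-value is that between such repeats within a group, estimated over all 15 libraries. It is not a spread between clones. Only LAP* libraries of clone C1 were analysed here.

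C/EBP proteins are leucine zipper transcription factors that dimerize with each other and bind sites built around the core TTGC. In myeloid cells C/EBPα drives entry into the granulocyte-macrophage lineage, C/EBPβ takes part in macrophage, inflammatory and emergency granulocyte programmes, and C/EBPε is required for the secondary granules of neutrophils and for eosinophils. The Cebpb transcript is translated from alternative start sites into LAP*, LAP and the truncated LIP, and LAP* keeps the complete N-terminal activation region. The comparison asks which genes differ when only this isoform is returned to cells that lack C/EBPα and C/EBPβ.

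The labels held in the data. Cebpa had 0, 0 and 0 normalized reads in the dKO libraries and 0, 0.92 and 0 in the dKO-LAP* libraries, against 1437, 964 and 903 in WTFL cells. Reads on Cebpb, to which the rat transgene can align, were 0, 0 and 0 in dKO and 2538, 2564 and 4216 in dKO-LAP* libraries, with the third of these the highest, and they served only to check the labels. Reads on genes ran from 10316386 to 13066090 in dKO and from 11511667 to 12736441 in dKO-LAP* libraries. The myeloid markers Ptprc, Spi1 and Mpo were high in every library. Defining markers of B cells (Cd79a, Pax5), hepatocytes (Alb, Apoa1, Ttr), endothelium (Cdh5) and tissue mast cells (Fcer1a, Cma1, Tpsb2) had 0 to 3.15 normalized reads in the dKO and dKO-LAP* libraries. The other listed marker of mast cells, Ms4a2, had 54.5 to 84.9 in dKO and 45.6 to 75.6 in dKO-LAP* libraries, and that of hepatocytes, Afp, had 4.61 to 10.5 over both groups. The summed level of the stromal and endothelial markers was 374 to 409 in dKO and 138 to 173 in dKO-LAP* libraries, and came from Pecam1, which leukocytes also express. The part of such markers in the results was not tested.

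More genes were lower than higher in the cells with LAP*. Of the tested genes, 180 were higher (1.42%) and 384 lower (3.03%) relative to dKO cells. The lowered set was led by granule proteins and receptors of eosinophils, neutrophils and mast cells, such as Prg2, Ltf and Cpa3. The raised set held Csn2, Lin28b, Irs2 and a broad group of genes with small changes. The median called gene rose 1.57-fold or fell 1.67-fold, and 68 of the raised and 154 of the lowered genes changed by 1 or more on the log2 scale. The 3 libraries of a group did not overlap with the other 3 in 178 of the raised and 383 of the lowered genes, and 24.1% of all tested genes had such groups. All values are normalized reads, which are reads divided by a size factor for each library. A call is an adjusted p under 0.05 from limma's test on log2(normalized reads + 1), and fold changes are on that scale, which understates changes of low genes. In 16 of the raised genes the dKO group, and in 24 of the lowered genes the dKO-LAP* group, lay at the floor, at which no library has more than 3 reads. A fold against such a group is given as a lower bound. In 48 of the raised and 160 of the lowered genes the call held in all 6 fits that left out 1 library, and in 38 and 166 under all 8 other settings or tools. Without dKO replicate 1 or 2 or dKO-LAP* replicate 2 or 3 the raised genes numbered 74 to 90, and without any library but dKO-LAP* replicate 1 the lowered genes numbered 196 to 242.

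**Figure D1:**
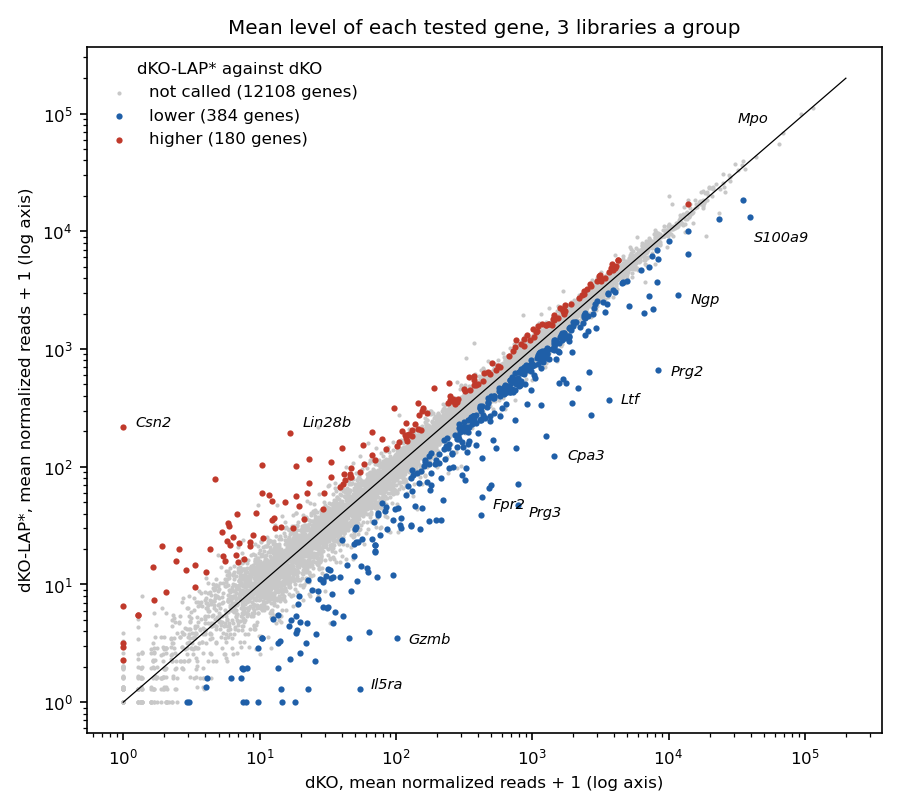
Mean normalized reads + 1 in dKO (x axis, log scale) and dKO-LAP* cells (y axis, log scale) for each of 12672 tested genes, with genes called higher in red (180) and lower in blue (384) and the line of equality in black. Csn2 had no read in dKO cells, Il5ra and Gzmb lie near the bottom in dKO-LAP* cells, and Mpo lies on the line.

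The secondary granule and neutrophil genes fell together. Of 20 listed genes, all of which were tested, 16 were lower, 0 were higher, and all 20 had a negative log2 fold change (median -1.71, also with genes at the floor set at their bound). The median over all tested genes was 0. Ltf, which encodes the iron-binding granule protein lactoferrin, lies on chromosome 9 from 111019271 to 111042767 on the plus strand. It had 3292, 3655 and 3941 normalized reads in dKO and 319, 437 and 353 in dKO-LAP* libraries, so every dKO-LAP* library was below every dKO library (9.85-fold lower, log2 fold change -3.30 ± 0.31 (SE), adjusted p = 1.82e-05). Ngp, a granule protein of the cathelicidin family, had 12052, 11007 and 12438 against 2906, 3024 and 2644 (log2 fold change -2.05 ± 0.24 (SE), adjusted p = 1.67e-04). Camp, the antimicrobial cathelicidin itself, had 8281, 7001 and 7729 against 2323, 2029 and 2222 (log2 fold change -1.81 ± 0.23 (SE), adjusted p = 3.10e-04). None of the dKO-LAP* means of these genes fell to that of WTFL cells, which was 1094 for Ngp and 628 for Camp, and the WTFL libraries had 37.5, 46.0 and 30.6 for Ltf. Cd177, a neutrophil surface glycoprotein, fell 4.06-fold, from 2600.2 ± 242 to 637 ± 15.5 (SD, n = 3). S100a9, a subunit of calprotectin and an abundant transcript of dKO cells, had 37964, 37756 and 42955 in dKO and 12670.2, 13583 and 13789 in dKO-LAP* libraries (log2 fold change -1.57 ± 0.20 (SE), adjusted p = 3.02e-04).

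Further members of the neutrophil list were smaller in level or in change. Mmp9, a gelatinase, fell 5.14-fold (log2 fold change -2.36 ± 0.47 (SE), adjusted p = 0.00928) and Lcn2, a siderophore-binding protein, fell 3.26-fold (log2 fold change -1.70 ± 0.28 (SE), adjusted p = 0.0022). Ly6g, which marks mature neutrophils, went from 57.8, 72.4 and 83.8 to 14.2, 8.30 and 9.12 normalized reads. Cxcr2, the chemokine receptor that guides neutrophils out of the marrow, went from 365, 240.2 and 367 to 98.5, 86.7 and 105. Retnlg, a resistin-like secreted protein, had 7.93, 16.8 and 26.5 in dKO libraries and no read in any dKO-LAP* library, a fall of at least 5.60-fold (adjusted p = 1.76e-04). The calls of the collagenase Mmp8 and of Anxa1 were lost without any 1 of the 6 libraries, with adjusted p up to 0.162 and 0.0811. S100a8, the other calprotectin subunit, fell 1.88-fold but lost its call without dKO replicate 1 or 3 or dKO-LAP* replicate 1 or 2 (adjusted p up to 0.0835). The listed genes that did not pass were Chil3, Padi4, Itgam and Hp. Of these Chil3, a chitinase-like protein, had the lowest log2 fold change (-1.05, adjusted p = 0.127).

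Promoters from RefSeq on GRCm38.p6, 250 bases before to 50 after the start, were available for 18 of these 20 genes. The letters TTGCNNAA, a loose form of the C/EBP site, stood on either strand in 8 of them, namely Anxa1, Lcn2, Ltf, Ly6g, Mmp8, Ngp, Retnlg and S100a9. They stood in 10.8% of the 27025 promoters of that table. The promoters of 5 lowered granule genes that hold the letters follow, shown so that the window behind this count can be read for genes with a called fall, with every match in capitals.
Ngp promoter (chr9:110419558-110419857, plus strand): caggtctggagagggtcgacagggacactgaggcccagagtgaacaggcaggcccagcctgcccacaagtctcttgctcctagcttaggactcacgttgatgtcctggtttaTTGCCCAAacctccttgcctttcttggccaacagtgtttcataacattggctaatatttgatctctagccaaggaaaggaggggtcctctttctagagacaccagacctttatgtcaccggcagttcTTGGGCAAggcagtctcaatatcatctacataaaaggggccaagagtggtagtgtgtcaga
Ltf promoter (chr9:111019042-111019341, plus strand): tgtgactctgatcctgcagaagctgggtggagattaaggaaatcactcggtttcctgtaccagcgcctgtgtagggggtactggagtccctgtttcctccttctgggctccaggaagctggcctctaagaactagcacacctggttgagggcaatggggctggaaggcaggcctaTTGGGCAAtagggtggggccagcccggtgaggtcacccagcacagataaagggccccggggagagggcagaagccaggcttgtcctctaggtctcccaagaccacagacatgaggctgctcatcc
Lcn2 promoter (chr2:32387690-32387989, minus strand): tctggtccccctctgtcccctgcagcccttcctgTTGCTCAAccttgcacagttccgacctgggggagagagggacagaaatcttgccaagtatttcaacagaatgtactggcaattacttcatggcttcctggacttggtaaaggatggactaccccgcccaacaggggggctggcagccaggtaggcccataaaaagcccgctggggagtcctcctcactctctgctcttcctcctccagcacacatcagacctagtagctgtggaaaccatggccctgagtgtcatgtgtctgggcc
Mmp8 promoter (chr9:7558179-7558478, plus strand): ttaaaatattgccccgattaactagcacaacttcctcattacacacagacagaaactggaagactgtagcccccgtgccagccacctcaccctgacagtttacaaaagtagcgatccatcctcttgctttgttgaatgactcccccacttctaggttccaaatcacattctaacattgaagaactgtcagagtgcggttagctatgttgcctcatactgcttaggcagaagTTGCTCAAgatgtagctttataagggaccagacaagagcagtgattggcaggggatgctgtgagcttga
S100a9 promoter (chr3:90695672-90695971, minus strand): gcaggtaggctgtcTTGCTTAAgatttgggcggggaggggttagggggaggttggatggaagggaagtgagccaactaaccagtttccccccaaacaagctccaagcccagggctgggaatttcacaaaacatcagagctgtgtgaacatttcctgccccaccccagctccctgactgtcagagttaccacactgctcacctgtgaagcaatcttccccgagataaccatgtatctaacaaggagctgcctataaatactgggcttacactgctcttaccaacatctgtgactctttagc
In Ngp the matches began 138 and 11 bases before the start, and in Mmp8 the match began 19 bases before it. Camp, Cd177 and Cxcr2 had no match in their windows. Of all lowered genes 311 of 384 had a promoter in the table, of which 39 (12.5%) held TTGCNNAA. Of the raised genes 136 of 180 had one (75.6%), of which 6 (4.41%) held it, and of all tested genes 9414 of 12672 (74.3%), of which 794 (8.43%) held it. Since fewer than 80% of the raised and of the tested genes had a promoter, a comparison between these shares is void. A match is a string of letters, not a measured binding site.

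The eosinophil list had the lowest median of the 37 gene lists. Of 12 listed genes 10 were tested, 8 were lower, 0 were higher, and the median log2 fold change was -3.30. With a pseudocount of 0.1 the calls of Epx, Ear1, Ear2, Ear6 and Alox15 were lost (adjusted p = 0.0589, 0.0644, 0.152, 0.0962 and 0.346), and edgeR and DESeq2 each called 8 of the 10 lower. Prg2 encodes major basic protein, the crystalline core of the eosinophil granule. It had 10159, 9403 and 5479.8 normalized reads in dKO and 1100.1, 475 and 406 in dKO-LAP* libraries and no read in WTFL libraries. The groups did not overlap, although the third dKO library stood well below the other dKO libraries (13.5-fold lower, log2 fold change -3.75 ± 0.38 (SE), adjusted p = 3.32e-05). Epx, the eosinophil peroxidase, showed the same order of libraries, with 3554, 2904 and 1609 in dKO and 425, 206 and 185 in dKO-LAP* libraries (log2 fold change -3.33 ± 0.45 (SE), adjusted p = 5.19e-04). Prg3, a homologue of Prg2, fell 17.2-fold (log2 fold change -4.10 ± 0.46 (SE), adjusted p = 9.38e-05). Il5ra, the receptor chain for the eosinophil growth factor IL-5, had 68.0, 49.3 and 44.1 in dKO and 0, 0 and 0.91 in dKO-LAP* libraries, a fall of at least 17.7-fold (adjusted p = 8.34e-07). With this fall Il5ra returned to the floor at which it lay in WTFL cells.

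The eosinophil-associated ribonucleases Ear1, Ear2 and Ear6 went from means of 422, 499.8 and 783 to 38.3, 69.5 and 70.8 normalized reads. These paralogs are nearly identical, so the split of reads among them is uncertain. Ear2 lost its call without dKO replicate 1 or 2 or dKO-LAP* replicate 2 or 3 (adjusted p up to 0.0887), and the lipoxygenase gene Alox15 lost it without any 1 of the 6 libraries (up to 0.109). Siglecf, a surface lectin of eosinophils, was at 465, 488 and 500.4 in dKO and 408, 431 and 378 in dKO-LAP* libraries, and its difference did not pass the test (log2 fold change -0.26 ± 0.20 (SE), adjusted p = 0.565). Ccr3, the eotaxin receptor of mature eosinophils, had at most 2.10 normalized reads in any of these libraries. The summed level of the eosinophil markers Epx, Siglecf, Ccr3 and Il5ra ranged from 2153 to 4088 in dKO and from 564 to 833 in dKO-LAP* libraries. In these bulk samples fewer cells of a type and less RNA per cell cannot be told apart, and the part of this marker level in other differences was not tested.

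Mast cell and basophil genes were split. Of 18 listed genes 10 were tested, 3 were lower and 0 were higher (median log2 fold change -0.41). Cpa3, the mast cell carboxypeptidase, had 1546, 1522 and 1297 in dKO and 144, 109 and 115 in dKO-LAP* libraries, and no read in WTFL cells (11.8-fold lower, log2 fold change -3.56 ± 0.21 (SE), adjusted p = 9.31e-08). Gzmb, the serine protease granzyme B, had 112, 116 and 76.8 against 2.03, 1.84 and 3.65 (29.6-fold lower, log2 fold change -4.89 ± 0.39 (SE), adjusted p = 2.80e-06). Il1rl1, the IL-33 receptor, went from 17.5 to 2.85. Kit, the receptor for stem cell factor, was at 2268 ± 144 in dKO and 1713 ± 57.3 in dKO-LAP* cells (adjusted p = 0.0608). The histidine decarboxylase gene Hdc was at 1269 ± 74.2 and 766 ± 154 (adjusted p = 0.252), and Gata2 at 260.1 ± 9.05 and 196 ± 19.1 (adjusted p = 0.404). edgeR called 4 genes of this list lower, Cpa3, Gzmb, Hdc and Il1rl1, and DESeq2 called 4, Cpa3, Gzmb, Hdc and Kit.

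Among megakaryocyte, platelet and erythroid genes 3 of 9 tested were lower and 0 were higher. They were Gata1, the erythroid and eosinophil regulator, its cofactor Zfpm1 and the integrin chain Itga2b. Gata1 had 34.0, 32.5 and 18.5 in dKO and 8.13, 3.69 and 4.56 in dKO-LAP* libraries (log2 fold change -2.20 ± 0.43 (SE), adjusted p = 0.00721). Itga2b fell from 213 ± 54.2 to 34.3 ± 10.5, whereas Pf4 (7.71 and 12.1, adjusted p = 0.551) and Vwf (22.7 and 18.3, adjusted p = 0.857), genes of the platelet granule, gave no call. Zfpm1 lost its call without dKO replicate 1 or dKO-LAP* replicate 3 (adjusted p up to 0.0722). Of the lymphoid and cytotoxic genes 2 of 7 tested were lower, Gzmb and Ikzf2, which encodes the zinc finger protein Helios (109 to 35.5). Tcrg-C1, a T cell receptor gamma constant segment that has close paralogs, went from 99.7, 50.4 and 37.1 to 5.08, 1.84 and 1.82 normalized reads. Cd3e and Cd3g, which every T cell transcribes, had at most 2.77, and Lck, a kinase that is the other listed T cell marker, had 10.6 to 21.0 in dKO and 9.12 to 21.3 in dKO-LAP* libraries. The erythroid markers, of which only Hbb-bt had reads, summed to 6.29 to 7.94 in dKO libraries and to 0 in dKO-LAP* libraries.

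**Figure D2:**
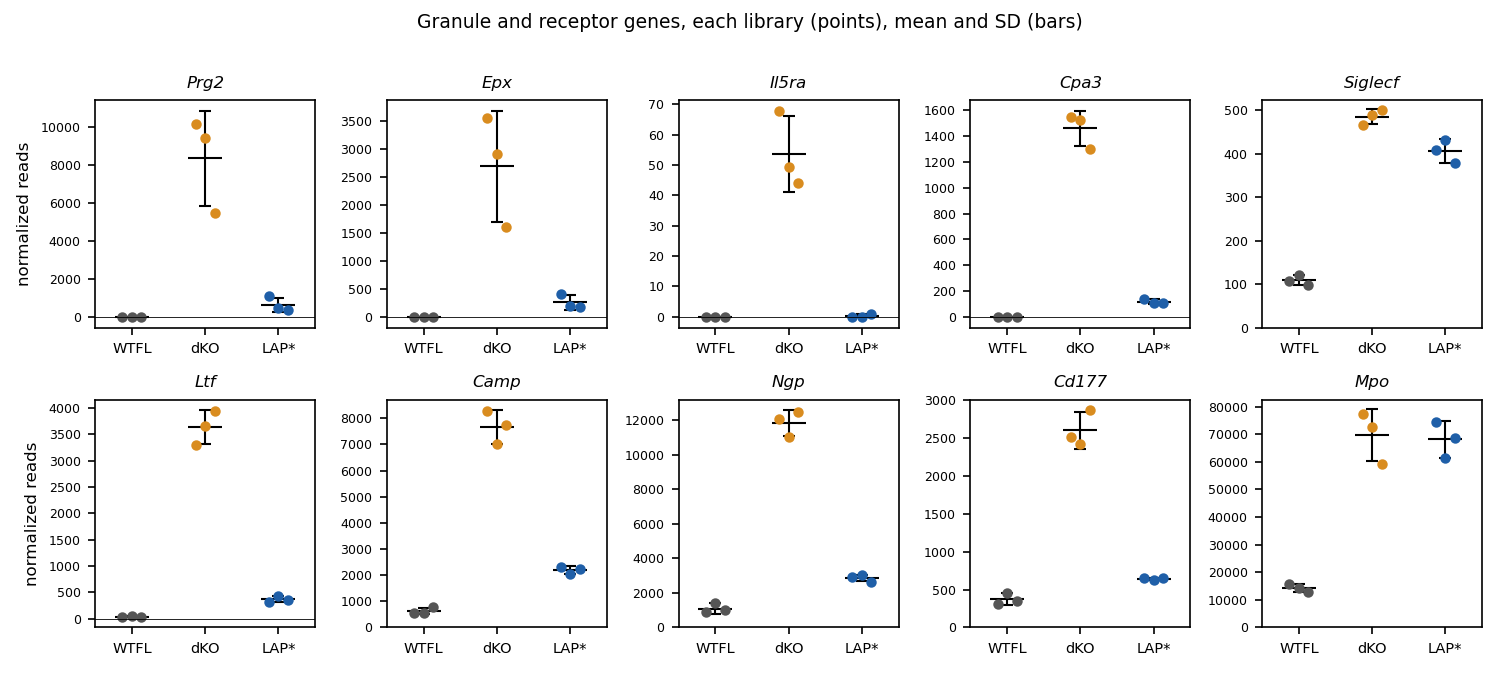
Normalized reads (y axis, linear) in each WTFL, dKO and dKO-LAP* (marked LAP*) library (points) of clone C1, with the mean and SD of 3 libraries (bars). For Prg2, Epx, Il5ra, Cpa3, Ltf, Camp, Ngp and Cd177 the dKO-LAP* points lie below all dKO points, while for Mpo, at 59156 to 77194 in both groups, they do not.

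The primary granule genes of promyelocytes gave no call in either direction, where 1.42% of all tested genes were higher and 3.03% lower. Of 12 tested genes 0 were higher and 0 were lower (median log2 fold change -0.04), 2 had an unadjusted p under 0.05, and edgeR and DESeq2 called 0. Mpo, the myeloperoxidase gene, had 77194, 72755 and 59156 normalized reads in dKO and 74549, 61315 and 68504 in dKO-LAP* libraries (log2 fold change -0.03 ± 0.25 (SE), adjusted p = 0.975), and a mean of 14174 in WTFL cells. Elane, the neutrophil elastase gene, was at 64114 ± 4716 and 55744 ± 8049.7, and Prtn3, the proteinase 3 gene, at 32409 ± 1825 and 33511 ± 4981. Ctsg, the cathepsin G gene, was at 11811 ± 1009 and 11830.1 ± 1627 (adjusted p = 1). Hp, which is in this list and the neutrophil list, was at 3632 ± 93.3 and 3248 ± 324.

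Monocyte, antigen presentation and inflammatory genes were largely without calls, as were all tested genes (1.42% higher and 3.03% lower). Lyz2, the lysozyme gene, was lower, 1 of 21 tested monocyte and macrophage markers (median log2 fold change -0.02, or 0.01 with the gene at the floor set at its bound). It had 7308, 7693 and 9719 in dKO and 3699.6, 3571 and 3769 in dKO-LAP* libraries (log2 fold change -1.15 ± 0.25 (SE), adjusted p = 0.0139) and lost its call without dKO replicate 3 or dKO-LAP* replicate 2 (adjusted p up to 0.064). Ly6c2, an antigen of inflammatory monocytes, was at 17957 ± 1163 and 18087 ± 1711 (adjusted p = 0.989). Of 8 MHC class II genes 1 was lower, H2-DMb1, which acts in peptide loading (1.66-fold, log2 fold change -0.73 ± 0.12 (SE), adjusted p = 0.00178), and all 8 had a negative log2 fold change (median -0.71). Cd74, the invariant chain, was at 480.2, 769.9 and 968 in dKO and 332, 474 and 547 in dKO-LAP* libraries, which overlapped (adjusted p = 0.415). edgeR called 2 and DESeq2 3 of the 8 lower. No call was made by limma among 23 tested interferon-stimulated genes (median log2 fold change 0.08) or 18 tested inflammatory cytokines and chemokines (-0.31, or -0.09 with the gene at the floor set at its bound). In these lists 2 and 1 genes had an unadjusted p under 0.05, and edgeR and DESeq2 called 0. Of these genes 15 of the 23 and 10 of the 18 reached 10 normalized reads in 3 or more of the 6 libraries compared, and the others entered the test through other libraries or fewer of these. Isg15 was at 6.56 in dKO and 3.46 in dKO-LAP* against 1097 normalized reads in WTFL cells. Among 25 NF-kB subunits, feedback genes and innate sensors 2 were lower, Nfkbia (1.48-fold), the inhibitor of NF-kB, and Tlr7 (2.04-fold), a sensor of RNA. The call of Nfkbia was lost without any 1 of the 6 libraries (adjusted p up to 0.159).

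**Figure D3:**
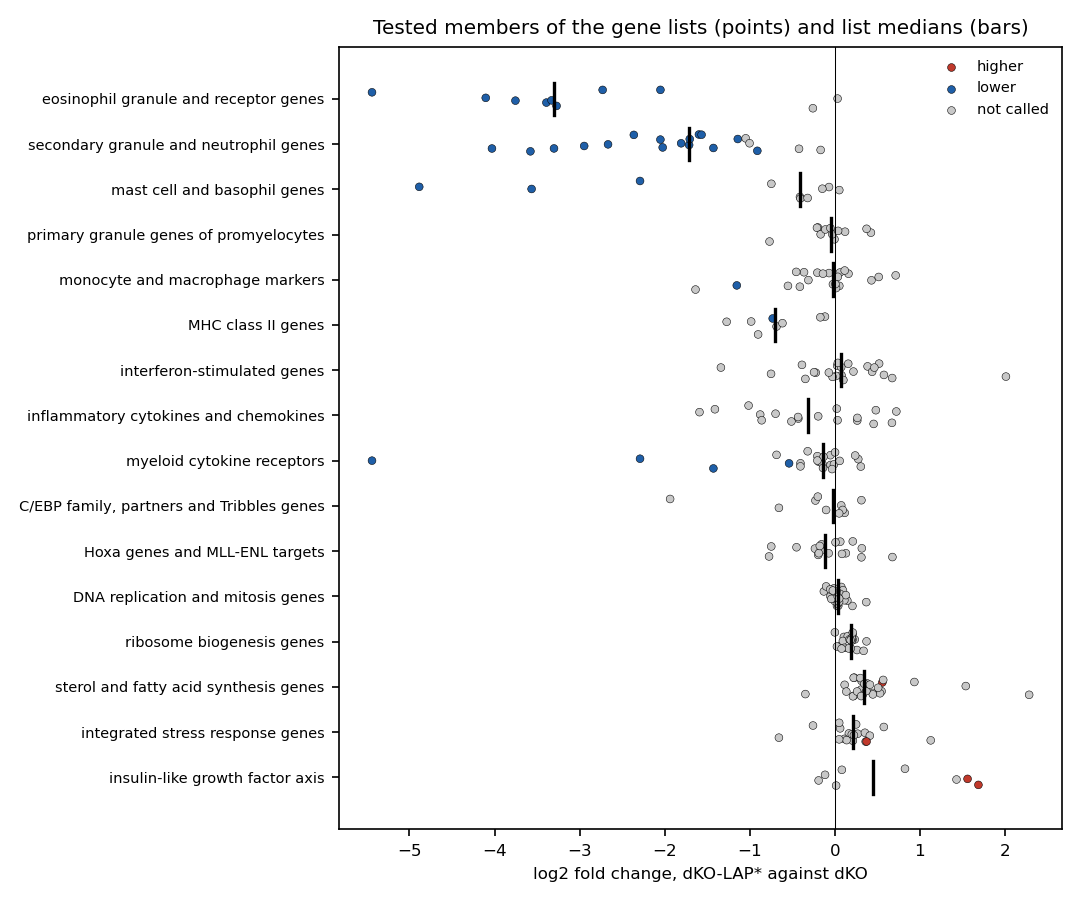
Log2 fold change of dKO-LAP* against dKO cells (x axis) for each tested member (points) of 16 gene lists (rows), with the list median as a bar and genes called higher in red, lower in blue and not called in grey. The eosinophil and secondary granule lists lie left of 0, with medians of -3.30 and -1.71, and the primary granule list is centred at -0.04.

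Of the 384 lowered genes, 288 had a higher mean in dKO than in WTFL cells, and 96 had a mean at or below it. The genes described next are examples of the 96, chosen after their values were seen. dKO and dKO-LAP* cells are both compared with the same WTFL libraries here, and the comparison with dKO shares libraries too, so the values stand side by side without a test across comparisons. Against WTFL cells 17.1% of tested genes were higher and 19.8% lower in dKO, and 14.2% were higher and 18.3% lower in dKO-LAP* cells. Cybb encodes the catalytic subunit of the phagocyte oxidase. It had 10198, 11542 and 10618 normalized reads in WTFL, 1687, 1621 and 1995 in dKO and 466, 581 and 485 in dKO-LAP* libraries, with no overlap between any of the groups (dKO-LAP* against dKO log2 fold change -1.79 ± 0.26 (SE), adjusted p = 8.00e-04). It was the only 1 of 6 tested oxidase genes to pass. The formyl peptide receptor Fpr2 had 1187, 1466 and 1248, 352, 396 and 532 and 42.7, 51.6 and 70.2 in the same order of groups (log2 fold change -2.95 ± 0.47 (SE), adjusted p = 0.0018). Fpr1, its paralog, had 939, 1097 and 509, 27.2, 36.7 and 68.0 and 3.05, 1.84 and 2.74, a fall from dKO to dKO-LAP* of at least 14.4-fold (adjusted p = 0.00125). Serpina3g, an inhibitor of cathepsins, stepped down from 1611 to 482 and to 65.2 (log2 fold change -2.84 ± 0.33 (SE), adjusted p = 1.18e-04). Ctsh, a lysosomal cysteine protease, was at 183, 239.9 and 231 in WTFL and 211, 163 and 146 in dKO libraries, which overlapped, and at 35.5, 29.5 and 36.5 in dKO-LAP* libraries (log2 fold change -2.31 ± 0.20 (SE), adjusted p = 5.71e-06).

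**Figure D4:**
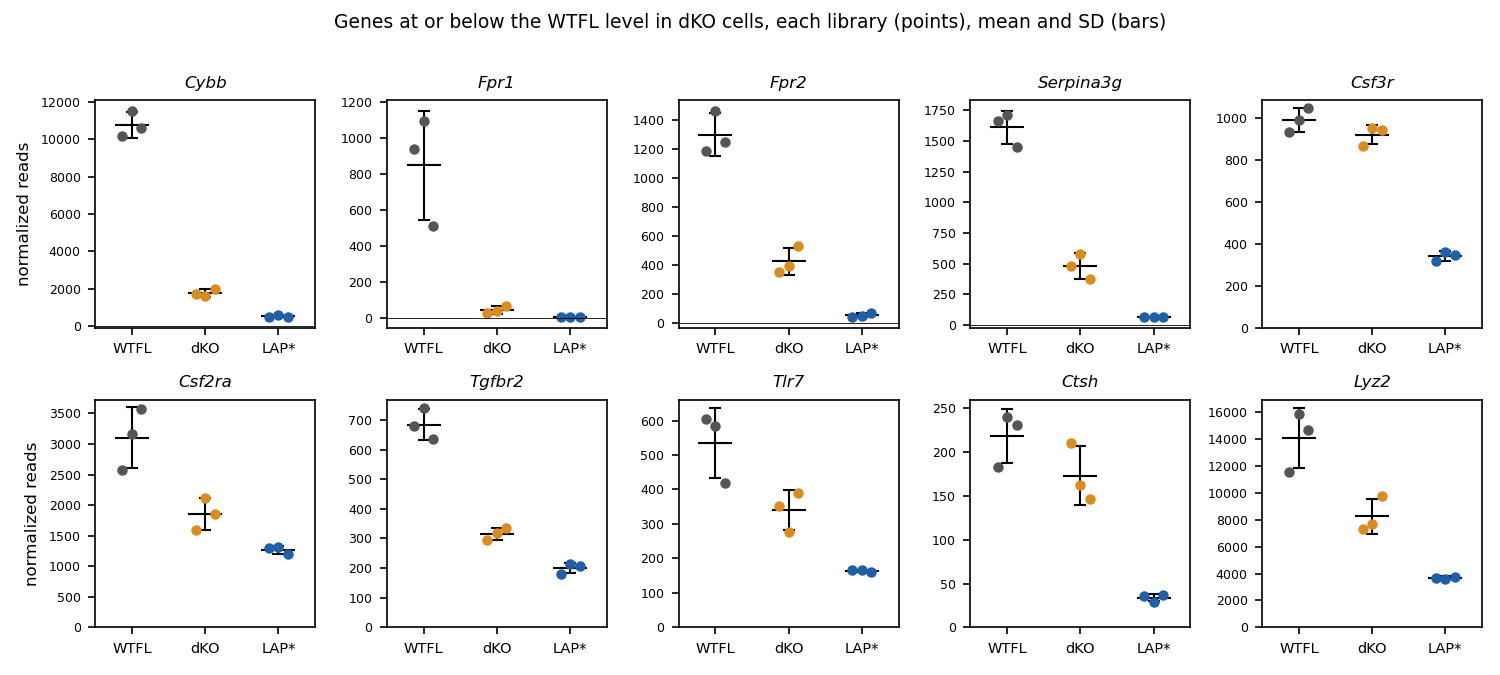
Normalized reads (y axis, linear) in each WTFL, dKO and dKO-LAP* (marked LAP*) library (points) of clone C1, with the mean and SD of 3 libraries (bars), for 10 genes that dKO cells expressed less than WTFL cells by their mean. In every panel the dKO-LAP* points lie below all dKO points, as for Cybb, with means of 10786, 1768 and 511.

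Other genes with a large fall belonged to none of the lists. Tnfsf13b, which encodes the B cell survival factor BAFF, had 81.5, 92.3 and 109 in dKO and 9.14, 16.6 and 7.30 in dKO-LAP* libraries (log2 fold change -3.05 ± 0.40 (SE), adjusted p = 3.57e-04), and 35.8 on average in WTFL cells. St3gal5, the synthase of the ganglioside GM3, went from 196 ± 36.2 to 34.2 ± 3.60 and had 0.6 in WTFL cells. Chil1, a chitinase-like protein, fell 5.57-fold (log2 fold change -2.48 ± 0.43 (SE), adjusted p = 0.00338), and the antisense gene Gm47071 fell 4.94-fold, with the caveat that reads of overlapping genes may not be told apart.

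Of 23 tested myeloid cytokine receptors 4 were lower, Il5ra, Il1rl1, Csf3r and Csf2ra, and 0 were higher. Csf3r, the G-CSF receptor of granulocytes, had 934, 991 and 1049 in WTFL, 869, 953 and 942 in dKO and 318, 359.5 and 349 in dKO-LAP* libraries. Its WTFL and dKO levels lay close together and the dKO-LAP* level was 2.69-fold lower than in dKO (log2 fold change -1.43 ± 0.13 (SE), adjusted p = 1.52e-05). Csf2ra, the GM-CSF receptor chain, fell 1.45-fold (log2 fold change -0.54 ± 0.11 (SE), adjusted p = 0.0123) and lost its call without dKO replicate 2 or dKO-LAP* replicate 3 (adjusted p up to 0.0724). Csf2rb, the common chain for IL-3, IL-5 and GM-CSF, was at 6771 ± 549.8 in dKO and 5931 ± 178 in dKO-LAP* cells (adjusted p = 0.329).

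Of 16 tested TGF-β receptor and SMAD genes 3 were lower and 0 higher. Bmpr1a, a type I receptor for bone morphogenetic proteins, had 386, 269.6 and 312 in dKO and 57.9, 84.8 and 85.7 in dKO-LAP* libraries (4.22-fold lower, log2 fold change -2.08 ± 0.16 (SE), adjusted p = 1.47e-06), and 163 on average in WTFL cells. Tgfbr2 fell 1.58-fold (log2 fold change -0.66 ± 0.13 (SE), adjusted p = 0.00759), and the coreceptor Tgfbr3 fell 4.43-fold, a call lost without any library but dKO replicate 1 (adjusted p up to 0.151). Of 20 STAT and MAPK feedback genes 3 were lower, the phosphatases Dusp1 (3.17-fold) and Dusp5 (1.80-fold) and the receptor signalling inhibitor Spry2 (1.44-fold). Of 10 AP-1 genes Fos and Fosb were lower. Fosb had 129, 176 and 79.4 in dKO and 3.05, 80.2 and 8.21 in dKO-LAP* libraries, so that the second dKO-LAP* library overlapped with dKO. Neither edgeR nor DESeq2 called Fosb. The call of Fos was lost without any 1 of the 6 libraries (adjusted p up to 0.127), that of Fosb without any library but dKO-LAP* replicate 2 (0.159) and that of Dusp1 without dKO replicate 2 or 3 or dKO-LAP* replicate 3 (0.0887).

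Of 13 tested leukotriene and prostaglandin genes 4 were lower, Alox15 (4.14-fold, with a call lost without any 1 of the 6 libraries), Alox5ap (1.22-fold), Lta4h (1.38-fold) and the prostaglandin E synthase gene Ptges (2.01-fold). Lta4h, which makes leukotriene B4, had 14536, 14346 and 13014 in dKO and 10832, 9566 and 9984 in dKO-LAP* libraries (log2 fold change -0.46 ± 0.09 (SE), adjusted p = 0.00824). Of 15 tested Fc receptors and adaptors 4 were lower, Fcgr2b, Fcer1g, Hcst and Syk, and the largest fall among them was 1.59-fold for Hcst. Of 12 tested heparan sulphate, chondroitin sulphate and hyaluronan genes 3 were lower, Csgalnact1, Chst15 and Sulf2. Among the lysosome genes Ctsh was lower, and of 14 integrin chains only Itga2b passed. The calls of Fcgr2b and Csgalnact1 were lost without any 1 of the 6 libraries (adjusted p up to 0.172 and 0.189). Those of Syk and Alox5ap were lost without any library but dKO-LAP* replicate 1 (0.147 and 0.119), and that of Sulf2 without any library but dKO replicate 1 (0.147). Ptges and Chst15 lost theirs without dKO replicate 2 or 3 or dKO-LAP* replicate 2 or 3 (0.0733 and 0.0871), and Hcst without dKO replicate 1 or 2 or dKO-LAP* replicate 2 or 3 (0.0985).

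Gene families outside the lists were examined after their values were seen, so their counts are a description. The stefin and cystatin genes, which encode inhibitors of cysteine proteases, lie mostly in a cluster on chromosome 16. Of 9 tested members 8 were lower and 0 higher (median log2 fold change -1.92). Stfa2 (ENSMUSG00000022902) had 1178, 1161 and 1419 in dKO and 158, 219 and 163 in dKO-LAP* libraries and lies on chromosome 16 from 36403992 to 36408457 on the minus strand. Stfa1, the most abundant member, had 26812, 20001 and 23421 against 11995, 12848 and 13066 (log2 fold change -0.88 ± 0.16 (SE), adjusted p = 0.00435). Csta3 fell 5.06-fold, from 149.8 ± 24.7 to 28.9 ± 5.38. These genes are near copies of each other, so their individual values are uncertain, and Stfa3 lost its call without any 1 of the 6 libraries (adjusted p up to 0.0918). Of 20 tested genes of granule exocytosis 6 were lower and 0 higher, namely Rab3d, Rab44, Stx2, Stx3, Sytl1 and Unc13d. Stx3, a membrane fusion protein, fell 3.46-fold (log2 fold change -1.79 ± 0.32 (SE), adjusted p = 0.00435), and Sytl1, a Rab27 effector, had 285, 294 and 267 against 143, 155 and 141 (log2 fold change -0.94 ± 0.13 (SE), adjusted p = 6.72e-04). Serpins went both ways, with 3 of 14 tested higher (Serpinb8, Serpinb9e and Serpinb9g) and 4 lower (Serpina3f, Serpina3g, Serpinb10 and Serpinb6a). Serpinb8 had 7.93, 10.5 and 15.9 in dKO and 51.8, 57.1 and 42.0 in dKO-LAP* libraries (log2 fold change 2.08 ± 0.40 (SE), adjusted p = 0.00679). The call of Serpinb10 was lost without any 1 of the 6 libraries (adjusted p up to 0.116). Those of Serpina3f, Stx2 and Unc13d were lost without any library but dKO-LAP* replicate 1 (0.157, 0.166 and 0.196). Serpinb9e and Serpinb9g lost theirs without dKO replicate 1 or 2 or dKO-LAP* replicate 2 or 3 (0.134 and 0.114), and Serpinb6a without dKO replicate 2 or dKO-LAP* replicate 3 (0.0794).

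The largest lower bound or fold of any raised gene was that of Csn2, which encodes the milk protein β-casein, a classical target of prolactin and STAT5 in the mammary gland. It lies on chromosome 5 from 87692624 to 87699630 on the minus strand. It had no read in any dKO library and 197, 242 and 209.8 normalized reads in dKO-LAP* libraries, against 5.35, 6.31 and 5.09 in WTFL libraries. The rise was at least 63.6-fold over the dKO floor (adjusted p = 1.04e-09) and passed under all 8 alternatives and in all 6 fits without 1 library. The lowered promoters printed above were picked for holding TTGCNNAA, so no comparison with them is drawn. The windows of the lowered genes Il5ra, Gzmb, Prg3, Epx and Cpa3 held no match. The promoter of Csn2 follows and held no match either.
Csn2 promoter (chr5:87699376-87699675, minus strand): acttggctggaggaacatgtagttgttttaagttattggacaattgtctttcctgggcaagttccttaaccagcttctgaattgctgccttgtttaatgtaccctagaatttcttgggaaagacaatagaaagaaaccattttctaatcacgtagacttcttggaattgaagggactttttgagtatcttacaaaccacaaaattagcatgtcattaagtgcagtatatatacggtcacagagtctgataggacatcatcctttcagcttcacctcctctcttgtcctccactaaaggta
Lin28b, an RNA-binding protein that blocks maturation of let-7 microRNAs and marks fetal blood cells, had 10.2, 14.7 and 22.1 in dKO and 156, 218 and 202 in dKO-LAP* libraries. The rise was 12.0-fold (log2 fold change 3.58 ± 0.26 (SE), adjusted p = 8.35e-07), and WTFL cells, at 13.4, 8.12 and 9.17, overlapped with dKO cells. The noncoding gene 4930444F02Rik rose from 3.68 ± 1.49 to 78.3 ± 18.6 and had no read in WTFL cells. Tdrd5, a Tudor domain protein of germ cells, had no read in WTFL, 68.0, 60.8 and 68.0 in dKO and 206, 192 and 189.7 in dKO-LAP* libraries (log2 fold change 1.56 ± 0.21 (SE), adjusted p = 4.97e-04). Hmgn1, a nucleosome-binding protein, rose 2.12-fold from 244 ± 17.4 to 518 ± 36.1, above its WTFL mean of 170.3, and lost its call without dKO-LAP* replicate 2 (adjusted p = 0.0536). Tns4, a focal adhesion tensin, had 57.5, 62.2 and 82.5 in WTFL, 113, 144 and 177 in dKO and 346, 299.6 and 393 in dKO-LAP* libraries, and its call was lost without dKO replicate 1 or dKO-LAP* replicate 3 (adjusted p up to 0.0675). Rfx3 and Kif21a, a ciliary transcription factor and a kinesin, rose 3.16-fold and 2.14-fold, and lost their calls without any library but dKO-LAP* replicate 1 (0.177) and without dKO replicate 1 or 2 (0.0591). Zbtb8a, Maged2, Fsip2l and 3830403N18Rik rose 3.10-, 2.12-, 2.76- and 7.08-fold, to means of 55.6, 97.1, 152 and 58.9 normalized reads. Their calls held in all 6 fits without 1 library, but those of Fsip2l and 3830403N18Rik were lost when only the 6 libraries compared were fitted (adjusted p = 0.0787 and 0.078).

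Of 8 tested genes of the insulin-like growth factor axis 2 were higher, Irs2 and Igf2r, and 0 lower, with a median log2 fold change of 0.45, or 0.07 with Igf1, at the floor in dKO cells, set at its bound. Irs2, the adaptor that links insulin and IGF receptors to PI3K, had 87.0, 149 and 127 in WTFL, 97.4, 99.7 and 89.1 in dKO and 271, 384 and 285 in dKO-LAP* libraries. Its dKO-LAP* level exceeded both other groups (3.23-fold over dKO, log2 fold change 1.69 ± 0.23 (SE), adjusted p = 4.78e-04). Igf2r, the receptor that clears IGF2 and sorts lysosomal enzymes, had 13.6, 12.6 and 8.83 against 33.5, 38.7 and 35.6, and its call was lost without any 1 of the 6 libraries (adjusted p up to 0.108). Igf1 had 1.13, 1.05 and 0 in dKO and 5.08, 2.77 and 2.74 in dKO-LAP* libraries (adjusted p = 0.128), against 20.1, 27.1 and 22.4 in WTFL cells. Igf1r, the IGF1 receptor, was at 1318 ± 38.8 and 1156 ± 47.2 (adjusted p = 0.381). Ghr, the growth hormone receptor, named after its values were seen, had 0, 2.10 and 2.65 against 13.2, 32.3 and 11.9, a rise of at least 5.62-fold over the floor (adjusted p = 0.0303, lost without any library but dKO replicate 3, adjusted p up to 0.124).

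Of the 180 raised genes, 142 had a mean in dKO cells at or below that in WTFL cells, and 38 had a higher mean. Csn2 and Irs2, described above, were among the 142. Of these 142 some returned to the range of WTFL libraries with LAP* and others stayed far below it. Gramd3 had 102, 129.9 and 131 in WTFL, 18.1, 16.8 and 17.6 in dKO and 103, 81.1 and 116 in dKO-LAP* libraries (log2 fold change 2.43 ± 0.31 (SE), adjusted p = 3.04e-04). Its dKO-LAP* and WTFL libraries overlapped. Cpne8, a calcium-dependent membrane-binding copine, went from 10.8 ± 3.18 to 56.7 ± 3.43, against 88.7 ± 8.32 in WTFL cells (log2 fold change 2.33 ± 0.27 (SE), adjusted p = 1.41e-04). Myo6, a motor that moves towards the minus end of actin filaments, had 27.2, 40.9 and 29.1 in dKO and 74.2, 81.1 and 87.5 in dKO-LAP* libraries, and its WTFL mean was 78.8. F7, coagulation factor VII, had 135, 171 and 259 against 476, 461 and 459 (log2 fold change 1.35 ± 0.16 (SE), adjusted p = 1.58e-04), while WTFL libraries held 4652, 4617 and 5084. Fn1, which encodes fibronectin, had 3.40, 6.29 and 18.5 in dKO, 54.9, 119.8 and 136 in dKO-LAP* and 10.7, 81.2 and 52.0 in WTFL libraries, and its call was lost without dKO replicate 1 or 2 or dKO-LAP* replicate 2 or 3 (adjusted p up to 0.071). Prdx4, a peroxiredoxin of the endoplasmic reticulum, went from 157 ± 44.1 to 316 ± 34.1, with a WTFL mean of 525 (log2 fold change 1.04 ± 0.19 (SE), adjusted p = 0.00472). Iqcg, a calmodulin-binding protein, varied among dKO-LAP* libraries, which had 185, 123 and 40.1 against 17.0, 23.1 and 25.6 in dKO and 187, 198 and 89.7 in WTFL libraries, and its call was lost without dKO replicate 1 or dKO-LAP* replicate 1 or 2 (adjusted p up to 0.0672).

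**Figure D5:**
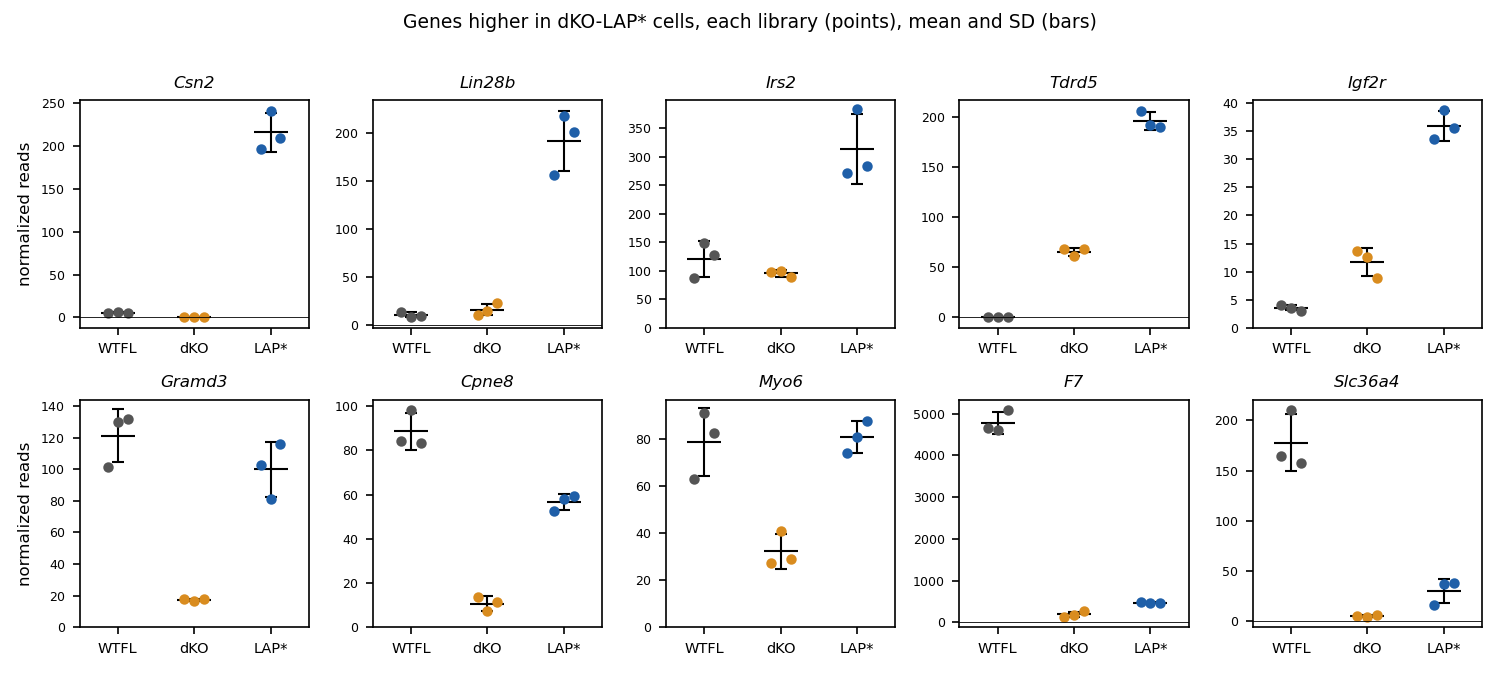
Normalized reads (y axis, linear) in each WTFL, dKO and dKO-LAP* (marked LAP*) library (points) of clone C1, with the mean and SD of 3 libraries (bars), for 10 of the raised genes. Csn2, Lin28b, Irs2, Tdrd5 and Igf2r rose above their WTFL level, whereas F7, at 459 to 476 in dKO-LAP* libraries, and Slc36a4 stayed far below it.

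The study drew 12 genes that were lower and 29 that were higher in dKO cells as examples of genes whose expression and chromatin returned towards WTFL with LAP* in these samples. Their direction was thus fixed by how they were chosen, and the counts are a description. Of the 12, all tested, 7 were called higher with LAP* and 0 lower. They were Sgce, Nrep, Rbfox2, Gramd3, Plxdc1, Afdn and Pmp22. edgeR called 4 of the 12, Gramd3, Pmp22, Rbfox2 and Sgce, and DESeq2 called these 4 with Ak4 and Jcad, so Nrep, Plxdc1 and Afdn were called by neither. Afdn had no read in dKO and 2.03, 0.92 and 3.65 normalized reads in dKO-LAP* libraries, too few for a fold. Pmp22, a myelin protein that also acts at cell junctions, had 2703, 2802 and 2348 in WTFL, 1.13, 7.34 and 9.71 in dKO and 27.4, 18.4 and 18.2 in dKO-LAP* libraries, so the rise of 3.82-fold left it near the dKO level. Sgce, ε-sarcoglycan, had 4.53, 2.10 and 7.94 against 34.5, 33.2 and 28.3. Of the 29, 24 were tested, 15 were called lower and 0 higher, among them Prg2, Itga2b, Ikzf2, Zfpm1, Alox15, Csgalnact1 and Stx3, which are described above. Of the 14 genes that the study names as repressed by HOXA9, 13 were tested and Cpa3, Gzmb and Stx3 were lower. The call of Nrep was lost without any 1 of the 6 libraries (adjusted p up to 0.203), and those of Plxdc1 and Afdn without any library but dKO-LAP* replicate 2 (0.174 and 0.136). Rbfox2 lost its call without dKO replicate 1 or 2 or dKO-LAP* replicate 3 (0.0705) and Pmp22 without dKO replicate 1 or dKO-LAP* replicate 1, 2 or 3 (0.0857).

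Growth and biosynthesis genes rose by small amounts where they passed. All 22 tested ribosome biogenesis genes had a positive log2 fold change (median 0.19), but none passed limma's test, while 8 had an unadjusted p under 0.05 and edgeR and DESeq2 each called 1, Npm1. Of 27 tested sterol and fatty acid synthesis genes 26 were positive (median 0.35), and 1 passed. This was Acaca, which makes malonyl-CoA for fatty acid synthesis, with 869, 1022 and 1146 in dKO and 1701, 1413 and 1356 in dKO-LAP* libraries (log2 fold change 0.56 ± 0.13 (SE), adjusted p = 0.0184). Its call was lost without dKO replicate 1 or 2 or dKO-LAP* replicate 1 (adjusted p up to 0.0801). Of 19 tested integrated stress response genes 17 were positive (median 0.21), and the serine synthesis gene Psat1 was higher (1.30-fold, log2 fold change 0.37 ± 0.09 (SE), adjusted p = 0.0311), a call lost without any library but dKO-LAP* replicate 3 (adjusted p up to 0.11). These counts of positive genes were the same with quantile normalization, edgeR and DESeq2. Of all tested genes 49.6% were positive. The genes of a list need not vary independently, so the counts are a description. Glycolysis (22 tested, median 0.27) and fatty acid uptake, storage and export genes (15 tested, median 0.15) gave no call with limma. In each of these 2 lists 7 genes had an unadjusted p under 0.05, and edgeR and DESeq2 each called 2 glycolysis genes lower, Pdk2 and Slc2a3, and no fatty acid gene.

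Transport and translation families were also examined after their values were seen. Of 24 importins and exportins 5 were higher, 0 lower and 22 positive, or 21 with quantile normalization (median log2 fold change 0.20), with Tnpo1, an importer of RNA-binding proteins, the largest at 1.32-fold. Xpot, the tRNA exporter, had 3189, 3193 and 3144 in dKO and 3610.2, 4009.8 and 3820.1 in dKO-LAP* libraries (log2 fold change 0.26 ± 0.06 (SE), adjusted p = 0.0275). Of 20 cytosolic aminoacyl-tRNA synthetases Tars (1.27-fold) and Rars (1.24-fold), which charge the threonine and arginine tRNAs, were higher and 19 were positive. Of 20 tested amino acid transporters 4 were higher, Slc36a4, Slc38a1, Slc38a2 and Slc7a2, and 0 lower, while 11 had a positive and 9 a negative log2 fold change (median 0.08). Slc38a1, which carries glutamine into cells, had 3821, 3668 and 4004 against 4742, 5462 and 5487 (log2 fold change 0.45 ± 0.07 (SE), adjusted p = 0.00154), above its WTFL mean of 3652. Slc36a4 rose 4.95-fold, from 4.97 to 30.2, against 178 in WTFL cells. The calls of Slc36a4, Slc38a1 and Slc7a2 held in all 6 fits without 1 library. Those of Ipo5, Rars and Xpo7 were lost without any 1 of the 6 libraries (adjusted p up to 0.153, 0.136 and 0.12). Xpo4 and Xpot lost theirs without any library but dKO-LAP* replicate 1 (0.187 and 0.113). Tnpo1 lost its call without dKO replicate 2 or 3 or dKO-LAP* replicate 2 or 3 (0.187), Slc38a2 without dKO replicate 1 or 2 or dKO-LAP* replicate 2 or 3 (0.163) and Tars without dKO replicate 1 or dKO-LAP* replicate 2 (0.0708).

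Genes for myeloid transcription factors were largely without calls, as were all tested genes (1.42% higher and 3.03% lower). Of 10 tested genes for C/EBP family members, partners and Tribbles proteins 0 were higher and 0 lower, 3 had an unadjusted p under 0.05, edgeR called 0 and DESeq2 called 1, Trib1. Cebpe had 380.0, 472 and 371 in WTFL, 2272, 2022 and 2027 in dKO and 2106, 1653 and 1669 in dKO-LAP* libraries. Its dKO and dKO-LAP* libraries overlapped (log2 fold change -0.23 ± 0.10 (SE), adjusted p = 0.247). Cebpd was at 1081 ± 164 in dKO and 1002 ± 84.4 in dKO-LAP* cells (adjusted p = 0.757). Of 24 tested myeloid transcription factors 1 was lower, Nr4a1, an orphan nuclear receptor (2.02-fold, log2 fold change -1.02 ± 0.21 (SE), adjusted p = 0.0108), whose call was lost without dKO replicate 2 (adjusted p = 0.0524). Spi1, which encodes PU.1, was at 3426 ± 213 and 3061 ± 322 (adjusted p = 0.307), and Gfi1, a repressor needed for neutrophils, at 3557 ± 213 and 3266 ± 228 (adjusted p = 0.491).

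Stem cell, MLL-ENL target and cell cycle genes were also largely without calls, as were all tested genes (1.42% higher and 3.03% lower). Of 18 tested stem and progenitor genes limma called 1 lower, Ikzf2, edgeR called Ikzf2 and Angpt1, and DESeq2 called these and Kit. Cd34, a progenitor antigen with 5.21 normalized reads in WTFL cells, had 2393, 2745 and 2729.8 in dKO and 2861, 2837 and 3024 in dKO-LAP* libraries (adjusted p = 0.852). None of 18 tested Hoxa genes and MLL-ENL targets passed limma's test (median log2 fold change -0.11), 5 had an unadjusted p under 0.05, edgeR called 1 and DESeq2 2. Hoxa9 was at 1547, 1618 and 1302 in dKO and 1076, 1899.8 and 1079.7 in dKO-LAP* libraries, with the second dKO-LAP* library apart from the others (adjusted p = 0.641). Meis1, the partner of Hoxa9, was at 944 ± 38.6 and 1095 ± 92.7 (adjusted p = 0.134). None of 30 tested DNA replication and mitosis genes passed with limma, edgeR or DESeq2 (median 0.04, 1 with an unadjusted p under 0.05). Of 19 tested cell cycle inhibitors, cyclins and p53 targets 1 was lower, the CDK inhibitor gene Cdkn2d (1.36-fold, lost without any 1 of the 6 libraries, adjusted p up to 0.189). With 1 entry for each symbol, none of 16 tested BCL2 family genes passed limma's test (1 with an unadjusted p under 0.05, and 0 called by edgeR and DESeq2). Another entry with the symbol Bcl2l2 was called lower by limma. Its call was kept with DESeq2 but lost with edgeR (adjusted p = 0.0533) and in the fit of only the 6 libraries compared (0.0621). Over the 37 lists, 564 of 651 genes were tested, 11 were higher and 69 lower, with this Bcl2l2 entry counted.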

How the data were processed

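RNA-seq libraries (Illumina TruSeq stranded mRNA) were analysed from the authors' table, of which 15 columns matched samples; 3 columns, named for LAP* in clone C2, matched no sample and were not analysed here. Per the labels and the deposited values, the authors mapped reads to mm10 with STAR 2.5.3a, counted them per gene with HTSeq 0.10.0 and divided the counts by a DESeq2 (1.26.0) size factor, so the deposited unit is a size-factor-scaled count signal. The strand setting of the counting is not given in the sources used here, so overlapping and antisense genes are uncertain. Whole reads were recovered for 99.994% to 100% of values within 0.1 read. The 5 rows of reads outside genes, 22.4% to 26.2% of reads, were left out of library sizes and tests.

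Genes that reached 10 normalized reads in 3 or more libraries were tested with limma 3.58.1 (R 4.3.3; trended prior) on log2(normalized reads + 1) over all 15 libraries with 1 mean per group, and Benjamini-Hochberg adjustment over all genes tested; calls have an adjusted p under 0.05. Cebpb was left out of all counts. The pipeline was tested on simulated data with 200 changed genes. Alternatives were pseudocounts of 0.1 and 5, no filter, quantile normalization, only the 6 libraries compared, a replicate block, edgeR 4.0.16, DESeq2 1.42.0, a log2 fold change of at least 1, and leaving out each library. Named are the 25 genes with the largest rise and the 25 with the largest fall among called genes with a mean of at least 50 normalized reads in the higher group and groups that do not overlap, members of the gene lists, and genes the study names; other genes are said to be named after their values were seen. Members and lists were chosen with earlier results of these data known. Symbols not in the table came from GENCODE, promoters from RefSeq (GRCm38.p6), with the first entry for each symbol. Figures were drawn with matplotlib 3.10.9 (Python 3.11.15). Some genes that the rule names are not reported here.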

Additional observations from a re-analysis of the deposited data

How the results depend on the processing

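None of the 110 called genes followed by name changed direction under the alternatives run. Against 180 genes higher and 384 lower, edgeR called 197 and 402, DESeq2 264 and 522, pseudocounts of 0.1 and 5 called 148 and 309, and 202 and 442, no filter 138 and 326, and quantile normalization 207 and 377. A fit of only the 6 libraries compared called 85 higher and 317 lower, and a log2 fold change limit of 1 left 68 and 154. Leaving out 1 library called 74 to 174 higher and 196 to 312 lower, with the lowest counts without dKO-LAP* replicate 2 (higher) and dKO-LAP* replicate 3 (lower). With the replicate number as a block 124 genes were higher and 293 lower. With so few libraries it cannot be told whether the numbers pair these samples. Deviations of same-numbered dKO-LAP* and dKO libraries correlated at -0.32, -0.03 and 0.28, and some libraries, but not every library, correlated best with their own number. Among these 110 genes the call was lost in 6 with edgeR, 6 with DESeq2, 26 and 2 with pseudocounts of 0.1 and 5, 16 with no filter, 3 with quantile normalization, 33 with only the 6 libraries, 17 with the replicate block and 22 to 33 without 1 library. Of genes whose calls held without each library, a pseudocount of 0.1 also ended those of Fpr1 (adjusted p = 0.0807), St3gal5 (0.11) and Il1rl1 (0.0644), DESeq2 that of Il1rl1 (0.0536), and the fit of only the 6 libraries those of Chil1 (0.0552), Dusp5 (0.0625), H2-DMb1 (0.0542), Prdx4 (0.0822), Rab44 (0.0924) and Spry2 (0.0632). A group with at most 3 reads in each library gives no fold but a bound, and of 564 tested genes of the lists 515 reached 10 normalized reads in 3 or more of the 6 libraries compared. LAP* libraries of 1 clone were analysed here, so in them an effect of LAP* and a change acquired by that culture cannot be told apart.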
